A study of Rattus norvegicus with 8 samples.

Results

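Middle cerebral artery occlusion (MCAO), a model of focal stroke, was compared with sham surgery in rats that had been pretreated with candesartan. The comparison rests on 4 of the 8 arrays of the series, chosen by their labelled treatment and surgery. They are 2 arrays labelled sham candesartan and 2 labelled MCAO candesartan. Each array carried RNA pooled from 2 rats, and the 2 pools of a group were independent. All rats were male Wistar rats, 7 weeks old and 160 to 200 g in weight. Candesartan was given at 0.1 mg/kg, 2 injections a day, for 5 days before surgery. Surgery was right MCAO for 90 min followed by reperfusion, or a sham operation. RNA came from part of the hemisphere on the operated side, taken 2 h after MCAO, and the labels do not say whether that time runs from the start or the end of the occlusion. The other 4 arrays, from sham and MCAO rats given 0.9% NaCl as vehicle, entered the same statistical model and serve here as a reference for single results. The protocol text of the second MCAO candesartan array names no pretreatment, so that its place in the group rests on its source name and its description.

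Occlusion of the middle cerebral artery cuts the blood supply of lateral cortex and striatum. Glutamate released in the ischaemic tissue and waves of depolarisation around it let calcium into neurons, and kinases then switch on the immediate early genes, which need no new protein synthesis. Their first products are transcription factors, followed by synaptic and secreted effectors and by phosphatases and G-protein regulators that shut the signal off. Damaged proteins induce heat shock genes through a separate factor, HSF1. Candesartan blocks the AT1 receptor, through which angiotensin II constricts vessels and promotes inflammation.

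Transcripts were measured on Affymetrix RAE 230A arrays, which give 1 linear signal per probe set, a group of short probes for 1 transcript. The table held 15923 probe sets, of which 57 were controls. The 10310 probe sets above a signal of 916 on at least 2 of the 8 arrays were tested, and they covered 7466 genes. Median signals lay between 1258 and 1378 on all 8 arrays. The array MCAO candesartan 2 stood apart. Its highest signal was 259588, against at most 151785 on the others. Its mean Pearson correlation with the other arrays over the tested probe sets was 0.951, against 0.970 to 0.973 for the remaining 7 (a description over probe sets, which are not independent). The 2 MCAO candesartan arrays differed by a median of 0.225 log2 units, against 0.155 between the sham candesartan arrays. Against the mean of the sham candesartan arrays, MCAO candesartan 1 had 26 tested probe sets more than 1 log2 unit higher and 14 more than 1 lower. MCAO candesartan 2 had 55 and 128. Both MCAO arrays are therefore given separately throughout.

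**Figure D1:**
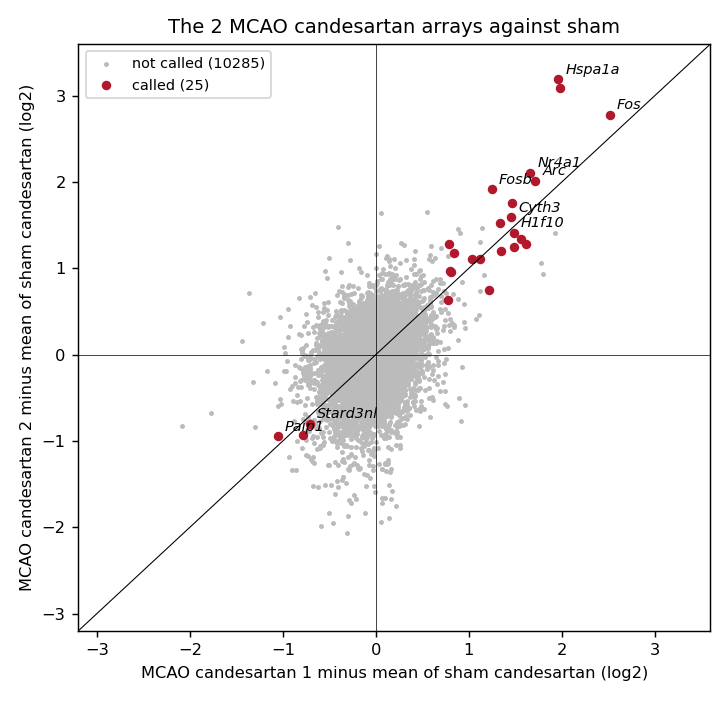
Each point is 1 tested probe set, placed by its log2 difference from the mean of the 2 sham candesartan arrays on MCAO candesartan 1 (horizontal axis) and on MCAO candesartan 2 (vertical axis), with the diagonal marking equal differences. The 25 called probe sets lie on the same side of 0 on both axes, and Hspa1a, at 1.96 and 3.19, lies above the diagonal. Of all tested probe sets, 128 fall below -1 on the vertical axis and 14 on the horizontal axis.

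After MCAO in candesartan rats, 22 probe sets rose and 3 fell (limma, adjusted p under 0.05 over all tested probe sets). These counts are 0.213% and 0.0291% of the 10310 tested. The probe sets that rose named 19 genes, and the 3 that fell named 2. Among the 19 were 9 transcriptional regulators of the immediate early class, the synaptic genes Arc and Homer1, the G-protein regulator Rgs2, the prostaglandin synthase Ptgs2, the phosphatase Dusp6, the chaperone Hspa1a, the splicing kinase Clk1, the kinase inhibitor Camk2n1, the linker histone H1f10 and the exchange factor Cyth3. The 2 that fell were Paip1, a partner of the poly(A)-binding protein in translation initiation, and Stard3nl, a membrane protein of late endosomes. Differences below are MCAO minus sham in log2(signal + 370), with the standard error of the model, and n is 2 pools in each group. The offset of 370 makes the differences of weak signals smaller than their ratios.

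For 1 probe set on the 4 arrays an exact permutation test cannot go below p = 0.333, so that every call rests on the spread that limma shares across arrays and probe sets. At an unadjusted p under 0.05 the same fit gave 567 probe sets higher and 713 lower. Of the 7466 genes, each taken at its brightest probe set, 392 were higher and 499 lower at this level. With only the 4 candesartan arrays in the fit, 11 probe sets rose and 0 fell. Leaving out sham candesartan 1 left 5 higher and 0 lower, and leaving out sham candesartan 2 left 8 and 0. Without MCAO candesartan 2 the counts were 18 and 5, of which 14 and 1 were among the calls on all arrays. Without MCAO candesartan 1, where MCAO candesartan 2 stands alone and is assumed to vary like the other groups, they were 315 and 520. Leaving out either sham vehicle array gave 14 and 1, and either MCAO vehicle array 13 and 1. Fos, Arc, Nr4a1 and 1 probe set of Rgs2 were called in each of the 18 alternative settings. Of these 18, Btg1 was called in 5, Camk2n1 and Egr2 in 7, the brightest probe set of Dusp6 in 8, and Clk1 and Stard3nl in 9. Of the 17 that gave a value for them, Fosb was called in 5, Atf3 and Ptgs2 in 6, and H1f10 in 9. The calls of these 10 genes, for Dusp6 that of its brightest probe set, were each lost when any 1 sham array or any 1 vehicle array was left out. Except for Clk1, they were also lost when MCAO candesartan 2 was left out. Hspa1a, Cyth3, Egr1, Junb, Paip1 and the other probe set of Rgs2 were not called when either sham candesartan array was left out, and Egr4 and Homer1 were not called without sham candesartan 1.

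**Figure D2:**
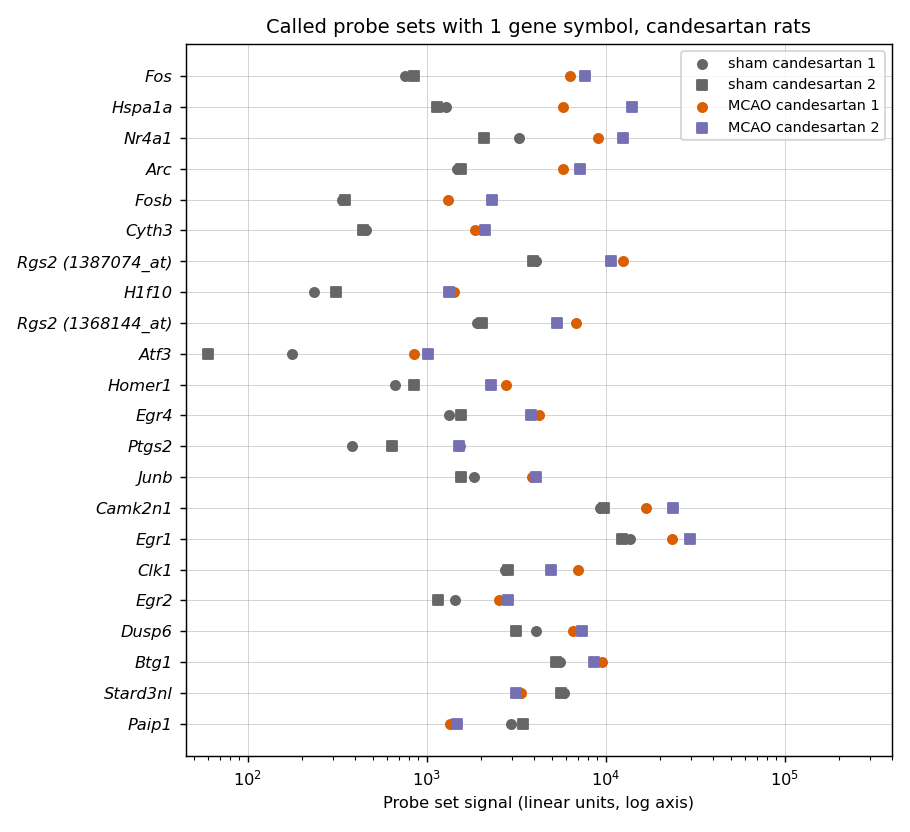
Signals (linear units on a log axis) of the 22 called probe sets with 1 gene symbol on the 2 sham candesartan arrays (grey) and on MCAO candesartan 1 (orange circles) and 2 (violet squares), ordered by log2 difference. Every MCAO point lies to the right of both sham points for the 20 higher probe sets and to the left for Stard3nl and Paip1, the 2 lower ones.

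The AP-1 subunit Fos had the largest difference of the called probe sets. Its signal was 755 and 852 on the sham candesartan arrays and 6332 and 7695 on the MCAO candesartan arrays. Fos rose by 2.65 ± 0.16 (limma adjusted p = 7.24e-05), and the 2 pools of a group lay close together compared with the gap between groups. A second Fos probe set, below the filter, gave 855.3 and 172.5 against 96.0 and 454.9, with overlapping groups. The related subunit Fosb gave 338 and 348 after sham surgery and 1323 and 2320.5 after MCAO, and rose by 1.58 ± 0.27 (limma adjusted p = 0.0477). Its MCAO pools differed more from each other than its sham pools did. For Junb, their dimerisation partner, the sham signals were 1836 and 1552 and the MCAO signals 3859 and 4066, a rise of 1.07 ± 0.13 (limma adjusted p = 0.00693). Atf3, a stress-induced factor of the same bZIP fold, was close to the floor of the array in sham rats, at 178 and 60, and reached 853 and 1022 after MCAO. Atf3 rose by 1.43 ± 0.24 (limma adjusted p = 0.0477). Atf3, Fosb, Ptgs2 and the called probe set of Homer1 lay below the filter signal of 916 on all 4 sham arrays of the series and entered the test only through the MCAO arrays, where they were high, so that their calls are not independent of the filter. With no filter, Homer1 was still called and the other 3 were not.

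The zinc finger factors Egr1, Egr2 and Egr4, which are induced within minutes of neuronal activity, also rose. Egr1 went from 13593 and 12384 to 23618 and 29748, a rise of 1.01 ± 0.13 (limma adjusted p = 0.0108). Egr4 signals were 1334 and 1565 after sham surgery and 4248 and 3822 after MCAO, and Egr4 rose by 1.28 ± 0.15 (limma adjusted p = 0.00486). A second Egr4 probe set, below the filter, gave 468.9 and 547.9 against 462.4 and 808.8, with overlapping groups. Egr2 gave 1432 and 1151 against 2538 and 2855 and rose by 0.89 ± 0.14 (limma adjusted p = 0.0412). On the called probe sets of all 3 genes both MCAO pools lay above both sham pools. Nr4a1, an orphan nuclear receptor of the same early wave, had unequal sham pools at 3270.3 and 2079 and MCAO signals of 9054 and 12505. It rose by 1.88 ± 0.19 (limma adjusted p = 0.00241). The antiproliferative coregulator Btg1 rose least of the 9, by 0.71 ± 0.12 (limma adjusted p = 0.0477), from 5566 and 5292 to 9589 and 8600.5.

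The list of immediate early transcription factors, which was drawn up with earlier results of these data known, held 36 genes. Of these, 33 were on the array, 31 passed the signal filter, 9 rose and 0 fell. Both MCAO pools lay above both sham pools in 20 of the 31 and below in 1, while the same held for 16.9% and 21.4% of all tested probe sets and for 17.1% and 20.7% of the 7466 genes, each taken at its brightest probe set. The median difference was 0.28 for the list, 0.30 on MCAO candesartan 1 and 0.45 on MCAO candesartan 2, against -0.02 over all tested genes. Atf3, Fosb and Ier2, members of this list, lay below the filter signal on all sham arrays and passed it only through MCAO arrays. The counts and the median of the list are therefore not independent of the filter. Without MCAO candesartan 2, 5 of the 9 (Fos, Nr4a1, Egr1, Egr4 and Junb) were still called, and the same 5 were called when any 1 of the vehicle arrays was left out. Without sham candesartan 1, Fos and Nr4a1 were called, and without sham candesartan 2, Fos, Nr4a1 and Egr4. Without MCAO candesartan 1 all 9 were. Among the members that missed the threshold, a probe set of Nr4a3, a close relative of Nr4a1, gave 1773 and 1796 after sham surgery and 3718 and 3491 after MCAO, a difference of 0.88 ± 0.16 (limma adjusted p = 0.0685). Its other probe set gave 0.61 ± 0.27, with MCAO signals of 821 and 1909.6. Ier2, an early nuclear protein, gave 228 and 213 against 956 and 750.3, a difference of 1.05 ± 0.23 (limma adjusted p = 0.155). The zinc finger factor Klf6 had disagreeing probe sets. The brighter, which the list uses, gave 982 and 951 against 898 and 1459, a difference of 0.19 ± 0.21 with 1 MCAO pool below the sham pools, and the dimmer gave 0.74 ± 0.16 (limma adjusted p = 0.742 and 0.155).

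The summed signal of 21 pyramidal neuron markers also lay higher in the MCAO pools, at 127.9% and 146.7% of the sham mean. Its part in the rise of neuronal genes was not tested. Fewer cells of a type and less RNA per cell cannot be told apart in RNA from whole tissue.

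Cyclic AMP and calcium act on several immediate early genes through the factor CREB, which binds TGACG and its palindrome TGACGTCA near the transcription start. RefSeq promoters of the rat build GRCr8 were matched by symbol for 15 of the 19 genes that rose, and Fos, Arc, Atf3 and Camk2n1 are named only. TGACG, searched on both strands, occurred within 250 bases upstream of the start in 8 of the 15 (Clk1, Cyth3, Egr1, Egr2, Egr4, Junb, Nr4a1 and Rgs2), and in 18.2% of 33469 promoters of the same length. The palindrome, which contains TGACG, occurred in 0 of the 15 and in 1.59% of all promoters. The CArG box, to which serum response factor binds, occurred in Egr1 and Egr2, and in 1.5% of all. The AP-1 site TGANTCA was found in 0 of the 15 (6.34% of all), the NF-kB site GGGNNTTCC in 0 (5.09% of all), and the heat shock element GAANNTTC in Ptgs2 alone (7.23% of all). Only this arrangement of the heat shock element was searched. The absence of GAANNTTC from the stretch used for Hspa1a does not show that Hspa1a lacks such an element. A match describes letters and is no evidence of binding, and no binding was measured. Fosb and Btg1, which also rose, carried 0 matches to any of these motifs. Stard3nl, which fell, carried 1 match to TGACG, and Paip1, the other named gene that fell, carried 0. Whether TGACG goes with the direction of change was not tested. The upstream sequences given belong to 4 transcription factors that rose and carried TGACG, as Egr1 also did. They are written 5′ to 3′ on the gene's strand and end at the last base before the start, and capitals mark matches to TGACG or its reverse complement CGTCA and, in Egr2, the CArG box.
Nr4a1, chr7:134259888-134260137, plus strand: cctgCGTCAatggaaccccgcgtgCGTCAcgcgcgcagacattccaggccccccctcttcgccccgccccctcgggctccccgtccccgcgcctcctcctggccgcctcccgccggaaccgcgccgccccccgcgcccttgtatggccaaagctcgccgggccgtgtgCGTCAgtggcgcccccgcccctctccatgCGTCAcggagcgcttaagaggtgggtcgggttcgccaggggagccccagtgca
Egr2, chr20:21054442-21054691, minus strand: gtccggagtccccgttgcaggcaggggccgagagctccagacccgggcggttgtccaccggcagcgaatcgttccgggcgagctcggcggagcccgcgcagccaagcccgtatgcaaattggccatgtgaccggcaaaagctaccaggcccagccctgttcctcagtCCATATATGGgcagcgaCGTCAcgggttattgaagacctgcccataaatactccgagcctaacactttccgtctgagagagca
Egr4, chr4:119607818-119608067, minus strand: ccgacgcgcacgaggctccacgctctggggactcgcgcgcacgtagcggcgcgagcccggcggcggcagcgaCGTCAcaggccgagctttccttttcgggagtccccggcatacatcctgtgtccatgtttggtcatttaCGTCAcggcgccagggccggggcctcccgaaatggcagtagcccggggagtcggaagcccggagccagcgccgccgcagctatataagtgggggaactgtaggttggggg
Junb, chr19:40080876-40081125, plus strand: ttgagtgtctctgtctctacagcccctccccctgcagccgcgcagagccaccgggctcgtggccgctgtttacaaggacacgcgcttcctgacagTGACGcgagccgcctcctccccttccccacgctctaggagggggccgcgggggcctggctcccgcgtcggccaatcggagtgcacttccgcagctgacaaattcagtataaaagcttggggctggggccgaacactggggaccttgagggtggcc
Nr4a1 carried 4 matches, which began 53, 82, 226 and 246 bases before the start. Egr4 carried 2, at 110 and 178 bases. Junb had 1 at 155 bases. In Egr2 the TGACG match began 66 bases and the CArG box 83 bases before the start, so that they lay close together.

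Of the effectors that follow immediate early signalling, Arc, Homer1, Rgs2 and Ptgs2 rose. Arc, a synaptic protein that controls the removal of AMPA receptors from the membrane, gave 1471 and 1549.7 in sham rats and 5802 and 7230.3 after MCAO. It rose by 1.87 ± 0.14 (limma adjusted p = 0.00025). Both sham pools and both MCAO pools of Arc were close to each other. Homer1 encodes a postsynaptic scaffold and a short, activity-induced form that competes with it. A dim Homer1 probe set went from 663 and 847 to 2772 and 2296 and rose by 1.37 ± 0.16 (limma adjusted p = 0.00586). The other 4 tested Homer1 probe sets differed by 0.59, 0.39, 0.32 and -0.15, and none of the 4 was called. Which Homer1 form each probe set measures was not determined here. Rgs2, which speeds the turning off of Gq signalling, was called on both of its probe sets. The brighter gave 4096 and 3920.2 against 12552 and 10726, a rise of 1.45 ± 0.13 (limma adjusted p = 0.00151), and the dimmer gave 1914 and 2051 against 6832 and 5340.2, a rise of 1.45 ± 0.17. Ptgs2, or cyclooxygenase-2, went from 384 and 639 to 1526 and 1508 and rose by 1.11 ± 0.19 (limma adjusted p = 0.0477), with nearly equal MCAO pools.

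Of 30 genes listed as activity-induced effectors, 25 were on the array, 22 passed the filter, these 4 rose and 0 fell. Without sham candesartan 1, 2 of the 4 (Arc and Rgs2) were called, and without any other single array at least 3. The median over the list, with the brightest probe set of each gene, was 0.19. The growth factor Bdnf gave 900.3 and 781 after sham surgery and 1509 and 1268 after MCAO, a difference of 0.54 ± 0.20 (limma adjusted p = 0.33). Its receptor Ntrk2 differed by 0.24 and 0.29 on 2 probe sets. The small GTPase Rem2 was listed near the floor at 126 and 111 in sham rats and gave 1306 and 648 after MCAO, with a difference of 1.42 ± 0.32 (limma adjusted p = 0.174). Both Rem2 signals after MCAO lay above both sham signals, but the 2 MCAO pools were far apart. This probe set passed the signal filter only through MCAO arrays. Sgk1, a kinase induced by glucocorticoids and by activity, lay the other way. Its signals were 18304 and 19893 in sham rats and 12855 and 9276 after MCAO, a difference of -0.78 ± 0.15 (limma adjusted p = 0.0913).

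Among regulators that shut down signalling, Dusp6, a phosphatase that inactivates ERK, rose on its brightest probe set. Dusp6 gave 4064 and 3158 against 6532 and 7368, a rise of 0.89 ± 0.14 (limma adjusted p = 0.0385). Its other 2 probe sets pointed the same way, with 1.30 ± 0.23 (limma adjusted p = 0.0613) and 0.96 ± 0.19 (limma adjusted p = 0.104). Dusp1, a phosphatase for p38, JNK and ERK, gave 6723 and 7831 after sham surgery and 10116 and 14578 after MCAO. Its difference of 0.72 ± 0.17 missed the threshold (limma adjusted p = 0.178). Dusp14 differed by 0.65 ± 0.15 (limma adjusted p = 0.178), and the CREB coactivator kinase Sik1 by -0.11 ± 0.17. Nfkbia, the inhibitor that holds NF-kB in the cytoplasm, gave 3426 and 3891 against 2449 and 2188, a difference of -0.58 ± 0.19 (limma adjusted p = 0.287). Of 15 tested members of the feedback list, 1 rose and 0 fell, with a median of 0.27 that ranged from 0.16 to 0.34 over the other normalizations and the sets with 1 candesartan array left out. The growth arrest gene Gadd45g, which missed the threshold narrowly, gave 1748 and 1772 against 3382 and 3762, a difference of 0.89 ± 0.15 (limma adjusted p = 0.0516).

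The inducible chaperone Hspa1a, an Hsp70, showed the widest spread between MCAO pools of the called genes. Its signals were 1284 and 1147 in sham rats and 5794 and 14082 after MCAO, so that the second MCAO pool was far above the first. Hspa1a rose by 2.58 ± 0.29 (limma adjusted p = 0.00486). A probe set that the annotation assigns to several genes, and that is not named here, gave 729 and 1061 against 4574 and 10286 and rose by 2.53 ± 0.29. The co-chaperone Dnajb1 gave 2969.9 and 2873 against 3850.2 and 4216 on its brighter probe set, a difference of 0.42 ± 0.11 (limma adjusted p = 0.23). The small heat shock protein Hspb1 gave 733 and 743 against 1273 and 888, a difference of 0.38 ± 0.20 (limma adjusted p = 0.478). Zfand2a, a stress-inducible proteasome adaptor, lay lower after MCAO, at 568 and 305 against 1323 and 1342, a difference of -1.10 ± 0.21 (limma adjusted p = 0.0776). Over the list of heat shock proteins and co-chaperones, 1 of 31 tested genes rose and 0 fell, with a median of 0.12. The 25 tested genes of the unfolded protein and integrated stress response included 0 that passed the test in either direction, with 3 higher and 2 lower at an unadjusted limma p under 0.05 and a median of -0.11. That median was 0.002 without MCAO candesartan 2 and 0.021 without sham candesartan 2, so that its sign depends on these arrays. Their transcription factor Atf4 gave 12149.6 and 13095 against 15204 and 17079.5, a difference of 0.34 ± 0.12 (limma adjusted p = 0.312), and the phosphatase subunit Ppp1r15a differed by 0.34 ± 0.14 (limma adjusted p = 0.375).

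Clk1, a kinase that phosphorylates splicing factors of the SR family, rose from 2745 and 2846 to 6967 and 4944, by 0.98 ± 0.16 (limma adjusted p = 0.047). It was 1 of 26 tested splicing kinases and regulators to rise, with 0 lower and a list median of -0.003. Its relative Clk3 gave 1366 and 1438 against 2410.0 and 2042, a difference of 0.55 ± 0.14 (limma adjusted p = 0.205). Camk2n1, an inhibitor of the calcium-dependent kinase CaMKII, went from 9296 and 9784 to 16716 and 23670.4 and rose by 1.03 ± 0.17 (limma adjusted p = 0.0412). A second probe set of Camk2n1 differed by -0.32 (limma adjusted p = 0.374), so that the rise rests on 1 of its 2 probe sets. Camk2a, a subunit of the same kinase and a pyramidal neuron marker, gave 6655 and 2217 after sham surgery and 15879 and 10932 after MCAO. Its difference of 1.67 ± 0.41 was larger than that of most called genes, but the sham pools lay far apart and the gene was not called (limma adjusted p = 0.194). The other 2 tested Camk2a probe sets differed by -0.08 and 0.04, with overlapping groups.

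The title of the series names a reduced inflammatory response under candesartan, and inflammatory genes were therefore listed. Their differences below are MCAO minus sham within candesartan rats, so that they do not compare candesartan with vehicle. Of 33 cytokines, chemokines and receptors on the array, 12 passed the signal filter, and 0 rose or fell by limma, with 3 higher and 1 lower at an unadjusted p under 0.05. The neutrophil chemokine Cxcl1 gave 38.5 and 182 against 1287 and 540.4, and its difference of 1.37 ± 0.31 was not called (limma adjusted p = 0.174). Its 2 MCAO pools both lay above the sham pools and were far apart. Cxcl1 passed the signal filter only through MCAO arrays. Ccl3, a chemokine made by macrophages and microglia, gave 861 and 1206 against 1476 and 2299.5, a difference of 0.67 ± 0.23 (limma adjusted p = 0.309). The monocyte chemokine Ccl2 stayed below the filter, with signals of 105 and 28.5 after sham surgery and 691 and 362 after MCAO. Il6, at 51 and 253 against 178 and 58.5, and Il1b, at 513 and 537 against 792 and 467, were also below it, with overlapping groups. Both probe sets of Tnf lay below the filter too.

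Of 34 inflammatory mediators, adhesion molecules and NF-kB genes on the array, 20 passed the filter, and 0 passed the limma test, with 0 higher and 3 lower at an unadjusted p under 0.05. The median was -0.10. Both MCAO pools lay above both sham pools in 1 of the 20 and below in 6, where 17.1% and 20.7% of all tested genes did. Timp3, an inhibitor of matrix proteases, gave 7020.1 and 5506 against 3953 and 3817, a difference of -0.63 ± 0.13 (limma adjusted p = 0.13). Complement C3 gave 1075 and 982 against 656 and 627, a difference of -0.47 ± 0.19 (limma adjusted p = 0.357). On these probe sets the MCAO pools lay below the sham pools. The other 3 tested probe sets of Timp3 differed by -0.25, -0.20 and 0.13, and the groups overlapped on the last 2. The adhesion molecule Icam1 and the protease inhibitor Timp1 had MCAO pools on either side of the sham range, at 199.5 and 652 for Icam1 and 1672 and 553 for Timp1. The renin-angiotensin system, on which candesartan acts, had 11 tested members of 16 on the array, with 0 called by limma, 0 at an unadjusted p under 0.05 and a median of -0.16. Agt, the precursor of angiotensin, gave 8928 and 5639 against 4358 and 6622, with overlapping groups and a difference of -0.38 ± 0.22 (limma adjusted p = 0.502). The converting enzyme Ace differed by -0.26 ± 0.17 (limma adjusted p = 0.556). The receptor genes Agtr1a, Agtr1b and Agtr2 were below the filter, with no signal on these 4 arrays above 768.

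Paip1 fell on 1 of its 2 tested probe sets, from 2959 and 3474 to 1351 and 1485, by 1.00 ± 0.14 log2 units (limma adjusted p = 0.0194). Its other probe set gave 2942 and 3608 against 3399.8 and 2987, a difference of -0.03 ± 0.14 (limma adjusted p = 0.955), so that the 2 probe sets of Paip1 disagree. Stard3nl fell from 5885 and 5625 to 3368 and 3143, by 0.76 ± 0.11 log2 units (limma adjusted p = 0.0273). The pools of each group of Stard3nl lay close together. The third probe set that fell has no gene symbol. Both named calls were lost when either sham candesartan array was left out, with 0 lower calls of any probe set in either case.

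Several other genes lay lower in both MCAO pools without passing the test. The galactosyltransferase B4galt1 gave 1679.7 and 2050.1 in sham rats and 797 and 612 after MCAO, a difference of -1.06 ± 0.19 (limma adjusted p = 0.0715). The m6A reader Ythdf2 gave 4356 and 5014 against 1679 and 2448, a difference of -1.07 ± 0.24 (limma adjusted p = 0.174). For the hypoxia-inducible factor Epas1 the signals were 7429 and 7845 against 4750.5 and 4086, and the difference was -0.74 ± 0.14 (limma adjusted p = 0.0757). Its paralogue Hif1a, whose protein is regulated mainly by degradation, differed by -0.03 ± 0.11. The linker histone H1f2 gave 15623 and 15687 against 9054 and 10366, a difference of -0.67 ± 0.12 (limma adjusted p = 0.0613), opposite in sign to H1f10. Tnni1, a troponin, had 1 MCAO pool at 175 and the other at 931, against 1995 and 1883 in sham rats. Among hypoxia targets, 0 of 24 tested genes passed the limma test, 2 were higher and 1 lower at an unadjusted p under 0.05, and the median was 0.05. The glucose transporter Slc2a1 differed by -0.13 ± 0.13 and the angiogenic factor Vegfa by 0.22 and 0.13 on its 2 probe sets.

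Cyth3 and H1f10 had MCAO effects that differed by pretreatment. Cyth3, an exchange factor for ARF GTPases, gave 457 and 443 in sham candesartan rats and 1873 and 2108 in MCAO candesartan rats, and rose by 1.52 ± 0.19 (limma adjusted p = 0.00693). In vehicle rats it gave 1161 and 1118 after sham surgery and 399.9 and 610.4 after MCAO, a difference of -0.80 ± 0.19 (limma adjusted p = 0.203). H1f10, a replication-independent linker histone, gave 234 and 309.9 against 1422 and 1337 in candesartan rats and rose by 1.45 ± 0.21 (limma adjusted p = 0.0215). Its vehicle signals were 981 and 928 after sham surgery and 248 and 244 after MCAO, a difference of -1.10 ± 0.21 (limma adjusted p = 0.0852). The effect in candesartan rats minus that in vehicle rats was 2.32 ± 0.27 for Cyth3 and 2.55 ± 0.30 for H1f10, with an interaction adjusted p of 0.0216 for each (limma). These 2 were the only probe sets called for this difference, 0.0194% of those tested, and 914 had an unadjusted p under 0.05. The sham pools of both genes were also on different levels in the 2 pretreatments, and a second probe set of Cyth3, below the filter, gave 682 and 760.3 against 670.4 and 741. Leaving out any 1 of the sham arrays or of the MCAO vehicle arrays left 0 calls of this kind, leaving out MCAO candesartan 2 gave 7, and leaving out MCAO candesartan 1 gave 296. With no signal filter there were 0.

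For the remaining genes that rose, the effect did not pass a test of difference from vehicle rats. Of the 22 probe sets that rose, 16 were also called in vehicle rats, and 19 had both MCAO vehicle arrays above both sham vehicle arrays. Among the 20 with 1 symbol the effect was larger in candesartan rats for 13 and larger in vehicle rats for 7. Fos differed between MCAO and sham by 2.87 ± 0.16 in vehicle rats. For Hspa1a the vehicle effect was 4.14 ± 0.29, and the effect in candesartan rats minus that in vehicle rats was -1.56 ± 0.41 (limma interaction adjusted p = 0.458). For Hspb1 it was -1.68 ± 0.28 (limma interaction adjusted p = 0.16), with a vehicle effect of 2.05 ± 0.20. The neuronal protein Sncb, a relative of alpha-synuclein, had opposite signs on its dimmer probe set, with 0.68 ± 0.12 in candesartan and -0.54 ± 0.12 in vehicle rats (limma interaction adjusted p = 0.0918). Its brighter probe set gave 0.26 ± 0.11 and 0.10 ± 0.11, both above 0 (limma interaction adjusted p = 0.768). Zfand2a also had opposite signs, with -1.10 ± 0.21 and 0.90 ± 0.21 (limma interaction adjusted p = 0.0918). Camk2n1 differed by 0.02 ± 0.17 in vehicle rats, and the test of its difference of effects gave a limma adjusted p of 0.422.

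**Figure D3:**
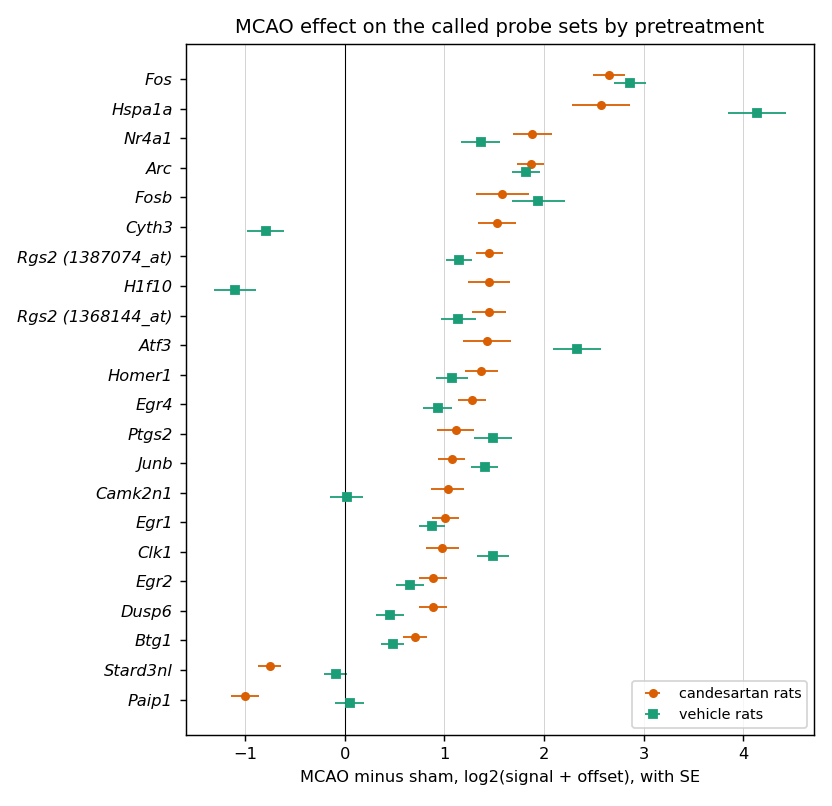
MCAO minus sham difference in log2(signal + 370), with its standard error from the 8-array model, of the 22 called probe sets with 1 gene symbol in candesartan rats (orange circles) and in vehicle rats (green squares). Cyth3 and H1f10 lie on opposite sides of 0 in the 2 pretreatments, at 1.52 and -0.80 for Cyth3 and 1.45 and -1.10 for H1f10.

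Outside the called genes, groups failed to overlap often. Both MCAO pools lay above both sham pools for 1738 probe sets, 16.9% of those tested, and below for 2204, 21.4%. Counts over the gene lists are therefore read against these shares. The median difference over all tested probe sets was -0.03. It varied with signal strength, from -0.08 and -0.06 in the dimmest 2062 probe sets on MCAO candesartan 1 and 2 to 0.04 and 0.07 in the brightest 2062.

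Ribosomal protein and respiratory chain genes, which are bright on these arrays, lay slightly higher after MCAO. Of 39 tested cytosolic ribosomal protein genes, 0 passed the limma test (6 higher and 1 lower at an unadjusted p under 0.05). In both pools 16 (41.0%) lay above and 3 (7.7%) below, against 17.1% and 20.7% of all tested genes. The median was 0.11. It was -0.04 after quantile normalization and -0.015 after cyclic loess, so that its sign depends on the scaling. Rpl19, a protein of the large subunit, gave 37167 and 41489.5 against 44725 and 61372, a difference of 0.41 ± 0.15 (limma adjusted p = 0.339). Of 79 respiratory chain and ATP synthase genes, 0 passed the limma test (7 higher and 2 lower at an unadjusted p under 0.05). In both pools 26 (32.9%) lay above and 3 (3.8%) below, and the median of 0.10 was 0.001 after quantile normalization. The ATP synthase subunit Atp5f1e gave 13849.7 and 17545 against 19484 and 23336, while the complex III subunit Uqcr10 gave 14439.6 and 15858 against 9932 and 10986. Among 32 translation factors, 1 (Paip1, on 1 probe set) fell and 0 rose, with a median of 0.003. The 16 tested glucocorticoid-responsive genes had 0 called by limma (0 higher and 5 lower at an unadjusted p under 0.05). In both pools 1 (6.2%) lay above and 6 (37.5%) below. Their median was -0.26, which lay between -0.28 and -0.17 over the other normalizations and the sets with 1 candesartan array left out.

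**Figure D4:**
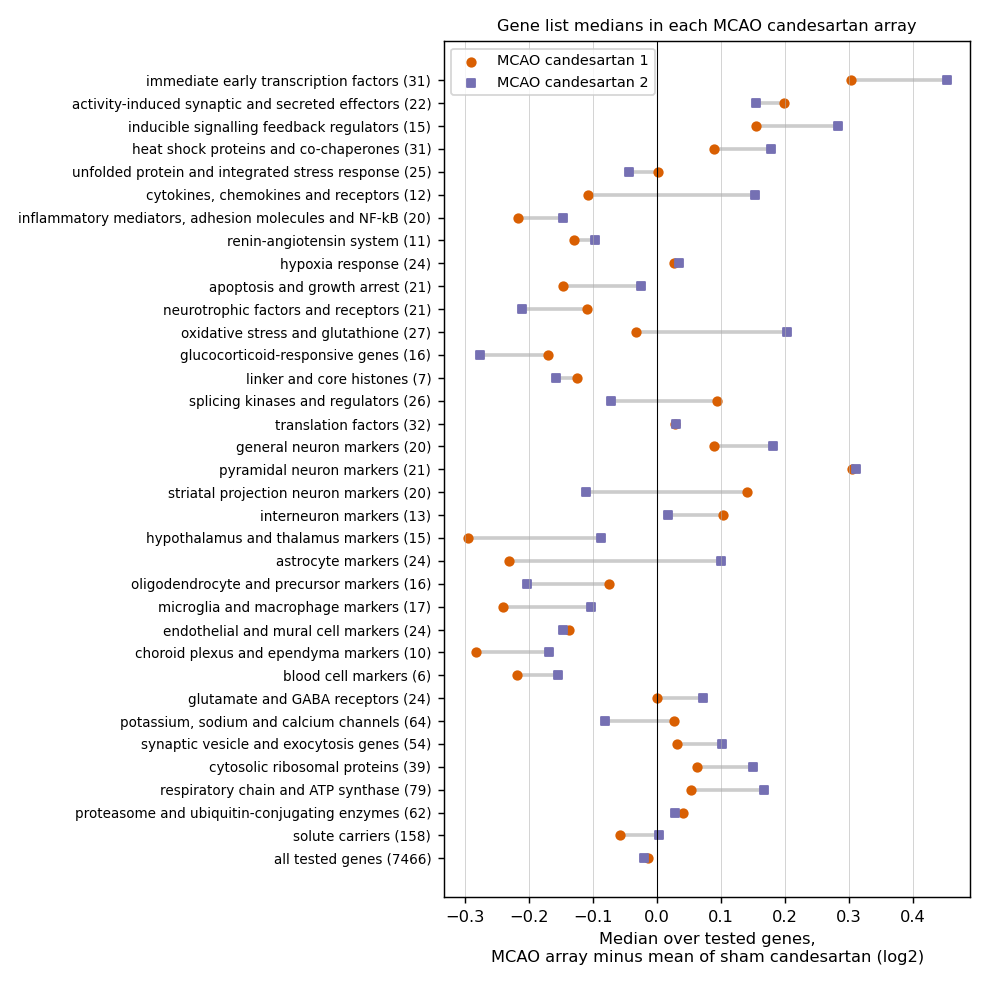
Median log2 difference from the mean of the 2 sham candesartan arrays over the tested genes of each list (number tested in brackets), on MCAO candesartan 1 (orange circles) and MCAO candesartan 2 (violet squares), joined by a grey line. Immediate early transcription factors lie at 0.304 and 0.453, pyramidal neuron markers at 0.305 and 0.312, and astrocyte markers have opposite signs on the 2 arrays, at -0.23 and 0.10.

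Markers of the cell types in the tissue were summed over all listed genes on the array, as linear signals. Pyramidal neuron markers, which are enriched in excitatory cells of cortex and hippocampus, summed to 186152 and 189512 in the sham pools and to 240302 and 275475 in the MCAO pools. The sham pools differed from each other by 1.8%, and the groups did not overlap. The sum includes Camk2a on a probe set at 6655 and 2217 in the sham pools and 15879 and 10932 in the MCAO pools. The other 2 tested Camk2a probe sets differed by -0.08 and 0.04. Of 21 tested pyramidal markers, 1 rose (Egr4, which is also an immediate early gene) and 0 fell. In both pools 13 (61.9%) lay above and 1 (4.8%) below, against 17.1% and 20.7% of all tested genes. The median was 0.26. It stayed between 0.18 and 0.32 over the other normalizations and the sets with 1 candesartan array left out. In vehicle rats the median of the same markers was -0.06, and the difference between the pretreatments was not tested for the list. Rgs4, a regulator of G-protein signalling in cortex, gave 13889 and 16877 against 20065 and 26286, a difference of 0.57 ± 0.15 (limma adjusted p = 0.205). In vehicle rats Rgs4 differed by 0.50 ± 0.15 (limma adjusted p = 0.441). Slc17a6, the vesicular glutamate transporter of thalamus, lay the other way at 8632 and 7739.9 against 5694 and 5514, a difference of -0.52 ± 0.12 (limma adjusted p = 0.168).

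General neuron markers summed to 110.7% and 131.4% of the sham mean in the 2 MCAO pools, with sham pools 0.9% apart. Of 20 tested, 5 (25.0%) lay above and 1 (5.0%) below in both pools, where 17.1% and 20.7% of all tested genes did. Their median was 0.10, or 0.039 after quantile normalization and 0.035 after cyclic loess. The synaptic fusion protein Snap25 gave 62558 and 66725 against 86194 and 113989, a difference of 0.61 ± 0.16 (limma adjusted p = 0.221). Interneuron markers summed to 106.1% and 111.1%. Of 13 tested, 4 (30.8%) lay above and 2 (15.4%) below in both pools, and the median was 0.07. The interneuron peptide somatostatin, Sst, gave 10193 and 12943 against 17122 and 19950.3, a difference of 0.67 ± 0.16 (limma adjusted p = 0.178). Htr3a, of the same list, lay the other way at 1150 and 1287 against 844 and 848, a difference of -0.38 ± 0.17 (limma adjusted p = 0.384). Striatal projection neuron markers, at 112.2% and 94.0%, did not separate from sham pools that were 22.7% apart. Markers of hypothalamus and thalamus summed to 81.4% and 96.5% with sham pools 20.8% apart. Of 15 tested, 1 (6.7%) lay above and 6 (40.0%) below in both pools. Pmch, a neuropeptide gene of the lateral hypothalamus, gave 12506 and 13625 against 6896 and 8872 (limma adjusted p = 0.23). Nptxr, of the same list, lay the other way at 10240.5 and 10631.8 against 15831 and 15688, a difference of 0.58 ± 0.11 (limma adjusted p = 0.0776). Pomc and Six3, 2 of the 20 hypothalamus and thalamus markers, stayed below a signal of 370 on all 8 arrays. How much of these differences stems from where the segment was cut was not tested.

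Sums of astrocyte, oligodendrocyte and endothelial and mural markers lay on different sides of the sham mean on the 2 MCAO arrays. Those of microglia, choroid plexus and blood cell markers lay below it on both. Astrocyte markers summed to 88.6% and 121.0% of the sham mean. Aqp4, the water channel of astrocyte endfeet, gave 17368 and 15962 against 13006 and 9754, a difference of -0.55 ± 0.14 (limma adjusted p = 0.205). Oligodendrocyte markers stood at 99.3% and 123.9%, and myelin basic protein, Mbp, gave 114156 and 117269 against 122217 and 231194, so that 1 of the MCAO arrays was far above the other 3. Of 16 tested oligodendrocyte genes, 3 lay above and 7 below in both pools, where 17.1% and 20.7% of all tested genes did. Their median was -0.13, and on MCAO candesartan 2 it was -0.20, although the sum was higher there. Microglia and macrophage markers summed to 87.0% and 91.4%, with sham pools 15.0% apart, and 2 of 17 tested genes lay above and 10 below in both pools, with a median of -0.22. Aif1, which encodes the microglial protein Iba1, gave 1055 and 1479 against 826 and 508, a difference of -0.66 ± 0.22 (limma adjusted p = 0.292). Its other tested probe set lay the other way, at 727 and 1008 against 1033 and 1295, a difference of 0.31 ± 0.19 (limma adjusted p = 0.523). The lectin Lgals3, made by activated macrophages, gave 1222 and 1083 against 508 and 347, a difference of -0.94 ± 0.22 (limma adjusted p = 0.178). Blood cell markers, which come from blood left in the tissue, summed to 80.8% and 82.3% with sham pools 15.0% apart, and Ahsp and S100a8 were below 370 on all arrays. Haemoglobin beta, Hbb, gave 104739 and 90325 against 75963 and 80107, with the MCAO pools below the sham pools. Endothelial and mural markers stood at 93.6% and 105.8%, and choroid plexus markers at 80.7% and 91.5% with sham pools 21.3% apart. No gene of the glial, vascular, choroid plexus or blood lists passed the limma test in either direction. At an unadjusted p under 0.05, 5 of 24 astrocyte, 6 of 17 microglia and 3 of 6 blood cell markers were lower. So were 3 of 16 oligodendrocyte, 2 of 24 endothelial and mural and 2 of 10 choroid plexus markers. Higher at this level were 1 astrocyte and 2 oligodendrocyte markers, and 0 in the other lists. Over all 7466 tested genes, 499 were lower and 392 higher.

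**Figure D5:**
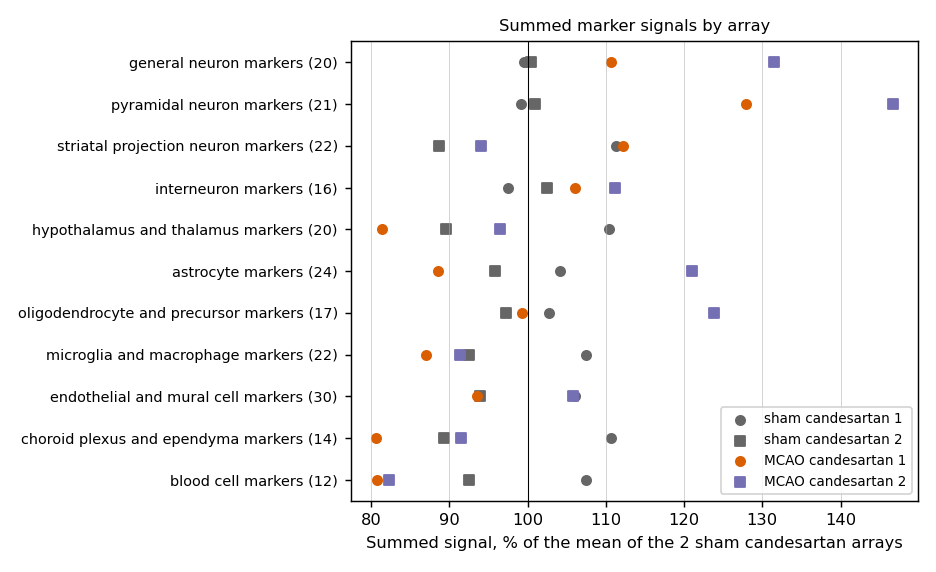
Summed linear signal of each cell type marker list (number of markers on the array in brackets) on the 2 sham candesartan arrays (grey) and on MCAO candesartan 1 (orange circles) and 2 (violet squares), as a percent of the mean of the 2 sham arrays. Pyramidal neuron markers stand at 127.9% and 146.7% after MCAO with sham pools 1.8% apart, whereas the striatal, hypothalamic and choroid plexus lists have sham pools 20.8% to 22.7% apart.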

How the data were processed

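RNA of 8 pools was hybridised to 8 Affymetrix RAE 230A arrays and read with GCOS, per the submitters' processing notes. The deposited table holds the authors' linear signal intensity per probe set. Its scaling is not given in the sources used here, but the 2%-trimmed means are 2500 on every array to within 0.000426%. The number of arrays limits the precision.

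Limma 3.58.1 in R 4.3.3 fitted the means of all 4 groups to log2(signal + 370), where 370 is the 20th percentile of all values, for probe sets above 916, the 40th percentile, on at least 2 of 8 arrays. The prior variance followed the mean signal, the residual degrees of freedom were 4, and a call is a Benjamini-Hochberg adjusted p-value under 0.05 over 10310 probe sets. The code was tested on simulated data. The pools are independent per the labels.

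Of 15923 probe sets, 12783 have 1 gene symbol in GEO's platform annotation, 312 several and 2771 none, and only the first kind is named. RefSeq (GRCr8) held 12748 of them. A gene list uses each gene's probe set with the highest mean.

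Named genes were drawn from all called ones, the 10 uncalled genes each way with the widest gap between groups, up to 4 members of each of 34 lists with the smallest p, the 8 with the smallest p for the difference between pretreatments, and a fixed set. The genes and lists were chosen with earlier results of these data known, and not every gene so drawn is printed.

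Alternatives changed the normalization, offset, filter, variance trend or set of groups, added the pool number as a block, or dropped 1 array at a time. Deviations of pools with the same number correlated between -0.095 and 0.137 across pairs of groups, so that the numbers were not taken to pair the pools.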

Additional observations from a re-analysis of the deposited data

Results flagged for a closer look

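The MCAO effect differed between pretreatments by the model's own interaction test for Cyth3 and H1f10. The effect in candesartan rats minus that in vehicle rats was 2.32 for Cyth3 and 2.55 for H1f10 in log2 units, each with a limma adjusted p of 0.0217. In each gene both MCAO candesartan pools lay above both sham candesartan pools, and both MCAO vehicle pools lay below both sham vehicle pools. Over 16 alternatives the limma adjusted p ranged from 0.00622 to 0.454 for Cyth3 and from 0.00136 to 0.454 for H1f10. The difference itself stayed above 0 in all 16, between 1.62 and 2.89 for Cyth3 and between 1.64 and 3.44 for H1f10. Both probe sets passed the signal filter only through the MCAO candesartan and sham vehicle arrays, where they were high. Their calls are therefore not independent of the filter, and were lost with no filter.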

How the results depend on the processing

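The counts of higher, lower and differing probe sets were 22, 3 and 2. Quantile normalization gave 22, 3 and 2, cyclic loess 23, 3 and 2, and centring on medians 29, 2 and 3. An offset at the 10th percentile gave 19, 3 and 2, and at the 40th 22, 2 and 2. No filter gave 15, 1 and 0, a stricter filter 18, 4 and 0, and no variance trend 17, 1 and 2. With only the 2 groups compared, 11 were higher and 0 lower. With the pool number as a replicate block the counts were 19, 3 and 0, of which 16 and 2 were among the original calls. Leaving out 1 array gave 5 to 315 higher, 0 to 520 lower and 0 to 296 differing, where the lone pool of a group is assumed to vary like the others. The cause of these shifts was not tested. The median over tested probe sets, -0.028, was -0.011 with quantile normalization, -0.002 with cyclic loess, 0.034 after centring on medians, -0.035 with no filter, -0.009 with the stricter filter, and -0.03 to -0.016 without 1 array. The uncalled genes Hif1a, Icam1, Sik1 and Timp1 and uncalled probe sets of Homer1 and Paip1 changed sign. Hif1a, at -0.03, gave 0.029 after centring on medians. The uncalled Paip1 probe set gave 0.003 with cyclic loess and 0.033 after centring. Without 1 array, Hif1a ranged from -0.072 to 0.005, this Paip1 probe set from -0.161 to 0.103, the Homer1 probe set from -0.451 to 0.144, Icam1 from -0.507 to 0.337, Sik1 from -0.325 to 0.099 and Timp1 from -0.527 to 0.617. No called gene changed sign under these alternatives. With 2 pools a group, differences between weak signals below about 916 were not measured.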

Other observations

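Genes of synaptic release and of neuronal signalling that no comparison above describes lay on both sides of 0. Among 54 tested synaptic vesicle and exocytosis genes, 0 passed the limma test, 8 were higher and 1 lower at an unadjusted p under 0.05, and the median was 0.04. The complexin gene Cplx1, whose product clamps vesicle fusion, gave 26009 and 27674 in sham candesartan rats and 31802 and 43419.8 after MCAO. The vesicle protein Sv2b gave 9724 and 9095 against 17152 and 12038. On these probe sets the MCAO pools lay above the sham pools, but on the other tested probe set of Cplx1 the groups overlapped, at 7914 and 4872 against 5694 and 9569. The 24 tested glutamate and GABA receptor genes had a median of -0.05. In both pools 3 (12.5%) lay above and 4 (16.7%) below, against 17.1% and 20.7% of all tested genes. Gria2, the AMPA receptor subunit that limits calcium entry, gave 13890.2 and 10780.3 against 17624 and 17505. The other tested Gria2 probe set lay slightly the other way, at 8933 and 9332 against 8263 and 8871. The 64 tested potassium, sodium and calcium channel genes had a median of -0.04. The calcium channel subunit Cacna2d1 gave 5179.5 and 5241 against 7107 and 8186 (limma adjusted p = 0.174), and the potassium channel Kcnc2, at 10194 and 11601 against 7923 and 8005, lay the other way on its brightest probe set (limma adjusted p = 0.207). The other 4 tested probe sets of Kcnc2 differed by between -0.37 and 0.12, with both signs.

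Growth factor genes lay on both sides of 0. Of 21 tested neurotrophic factors and receptors, 0 passed the limma test, 2 were higher and 5 lower at an unadjusted p under 0.05, and the median was -0.15, or -0.013 without sham candesartan 1 and -0.289 without sham candesartan 2. Insulin-like growth factor 1, Igf1, gave 2125 and 2088 against 1345 and 1093 on its brighter probe set, with overlapping groups on the other, and its binding protein gene Igfbp5 gave 3191 and 2630.0 against 1827 and 1385 (limma adjusted p = 0.104). Igf2, at 11521 and 5724 against 5000.5 and 3202, is also on the choroid plexus list, whose sham pools were 21.3% apart. Of 21 apoptosis and growth arrest genes, 0 passed, with 2 higher and 1 lower at an unadjusted p under 0.05 and a median of -0.12. That median was -0.024 without MCAO candesartan 1, -0.035 without sham candesartan 1 and -0.034 without sham candesartan 2. The BH3 protein gene Bad gave 2951 and 3287 against 4252 and 4095, and the Bcl-2 family member Bok gave 5839 and 5839 against 3934 and 4185, with overlapping groups on the other tested probe set of Bok (2662 and 3131 against 1828 and 3309). The 27 oxidative stress genes had a median of -0.02, the 62 proteasome and ubiquitin-conjugating enzyme genes 0.04, and the 158 solute carriers -0.06, each with 0 called by limma. The medians of the receptor, channel, oxidative stress and solute carrier lists changed sign with the normalization or when 1 candesartan array was left out. In the solute carriers, 17 lay above and 33 below in both pools. These are 10.8% and 20.9%, against 17.1% and 20.7% of all tested genes, so that the lower share is near that of all genes. The bicarbonate transporter Slc4a4 gave 8878 and 8514 against 6027 and 5688 (limma adjusted p = 0.0913) on its brighter probe set. The dimmer lay the other way, at 463 and 353 against 766 and 2074, a difference of 1.10 ± 0.33 (limma adjusted p = 0.26).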
